A study of Mus musculus with 4 samples.

Results

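The microRNA machinery genes are 10 mouse genes that encode the core proteins of microRNA production and microRNA-guided silencing, namely Drosha, Dgcr8, Dicer1, Ago1, Ago2, Ago3, Ago4, Tnrc6a, Tnrc6b and Tnrc6c. They were chosen by name, with earlier results of these data known, out of 21938 protein-coding genes of the GENCODE M21 annotation. A peak of N6-methyladenosine (m6A) was given to a gene when its summit, the position of highest enrichment, lay in an exon of that gene. By this rule 18 of 15635 peaks of immunoprecipitation (IP) replicate 1 and 17 of 14872 peaks of IP replicate 2 belonged to the machinery.

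The peaks come from meRIP-seq, in which RNA is broken into fragments, fragments that carry m6A are pulled down with an antibody, and their sequencing depth is set against a background at the same place. The series has 4 samples, namely 2 IP replicates, whose peak lists are described here, and 2 input replicates, which were not analysed here. Per the labels, the cells of all samples came from the foetal liver of mice of the C57BL/6 background and were enriched by MACS, a magnetic bead method, for Kit, a surface receptor of blood stem and progenitor cells. The labels give total RNA for IP and polyA RNA for input, and the study's methods describe the cells as Ythdf2 CTL, the floxed control genotype (Ythdf2 fl/fl, with GFP fused to the m6A reader YTHDF2) in which Ythdf2 was not deleted. The enriched fraction is a mixture, and a peak cannot be given to a cell type within it. Of 5 markers of blood progenitors, Gata2, Cd34 and Runx1 carried a summit in both replicates and Kit and Myb in neither. Of 5 markers of foetal hepatocytes, the other main cell type of the tissue, Dlk1 and Hnf4a carried one in both replicates, Afp in replicate 1 only, and Alb and Apob in neither. In replicate 2 a peak of 7.87-fold overlapped an exon of Afp without a summit there. The strongest summits of these hepatocyte markers rested on 7 to 24 IP reads, and those of the blood markers on 92 to 116. Peak lists hold no expression levels, so these peaks neither show nor exclude hepatocyte RNA. There is no second condition, so no test between groups was possible and the results are counts, levels and differences between replicates.

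MicroRNAs are cut from long primary transcripts in the nucleus by the Microprocessor, which consists of the RNase III enzyme DROSHA and its RNA-binding partner DGCR8. DICER1 cuts the exported hairpin precursor to the mature duplex, 1 strand of which is loaded into an Argonaute protein (AGO1 to AGO4). The TNRC6 (GW182) proteins bind Argonaute through glycine-tryptophan repeats and recruit the deadenylases that shorten the tail of the target mRNA. m6A is placed on mRNA by the METTL3-METTL14 complex, mostly at the adenosine of a DRACH sequence (R stands for a purine, D for any base but C and H for any base but G), of which GGAC is the best known core, and it is known to be frequent in long internal exons and near stop codons.

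Of the 10 machinery genes, 8 carried a summit in an exon in both replicates, where the same held for 6780 protein-coding genes (30.9%). When peaks of less than 4-fold enrichment were left out, the count was 4 (Ago4, Tnrc6a, Tnrc6b and Tnrc6c). At this cut the share was 16.9% of protein-coding genes and 31.1% of those with at least 5000 nt of exon. Dicer1 fell just short, with 3.99 in replicate 1 and 5.37 in replicate 2 at exon 21, while Ago4 stayed on 12 IP reads in each replicate. Tnrc6a stayed only through a site whose summits also lie in an exon of the predicted gene Gm45846. Without this cut, genes with long exons more often carried a summit in both replicates. The share was 48.1% of the 4248 genes of at least 5000 nt of exon and 50.1% of the 3690 genes that have an internal exon of at least 400 nt. Of the 6 machinery genes with such an internal exon, Drosha, Dgcr8, Dicer1, Tnrc6a, Tnrc6b and Tnrc6c, each carried a summit in both replicates. Of the 4 Argonaute genes, which have no internal exon of 400 nt, Ago2 and Ago4 did and Ago1 and Ago3 carried none in either replicate. Together the summits marked 18 distinct sites, of which 17 were found in both replicates, and 1 in Dicer1 was found in replicate 1 only.

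The sequence under these sites is shown first, since at 6 sites the summits of both replicates fell within 20 nt of the same GGAC. Each run is the sense strand of GRCm38, 5′ to 3′, with the GGAC and the base after it in capitals, and it is the GGAC nearest to the midpoint of the 2 summits of a site. The sites shown were chosen to cover every gene with a GGAC within 50 nt of a summit, with Drosha for contrast. Drosha and Ago4 had none so near. The peak lists do not resolve single bases, so a GGAC beside a summit is a description and not a mapped m6A site. Those of long internal exons lie in coding sequence, and the others in 3′ UTR.
Drosha exon 4, chr15:12833855-12833905, plus strand: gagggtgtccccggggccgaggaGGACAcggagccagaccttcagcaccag
Dicer1 exon 21, chr12:104702600-104702650, minus strand: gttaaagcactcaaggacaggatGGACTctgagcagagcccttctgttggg
Dicer1 exon 23, chr12:104696656-104696706, minus strand: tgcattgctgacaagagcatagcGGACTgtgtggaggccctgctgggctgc
Tnrc6b exon 8, chr15:80880276-80880326, plus strand: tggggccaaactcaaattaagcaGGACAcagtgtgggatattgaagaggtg
Dgcr8 exon 14, chr16:18255332-18255360, minus strand: agaagcagttctGGACAagctgctctcaa
Ago2 exon 19, chr15:73105579-73105607, minus strand: gcaggtaggaatGGACTgtgcccgaggac
Tnrc6a exon 24, chr7:123194849-123194877, plus strand: gcgggaccattgGGACAcgaagctgactg
Tnrc6c exon 22, chr11:117760904-117760932, plus strand: gctccagctgacGGACAagctgccccttg

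Counted along the transcript, the adenosine of the GGAC in Dicer1 exon 21 lay 1 nt before the summit of replicate 1 and 6 nt before that of replicate 2. In Dicer1 exon 23 it lay 3 and 18 nt after the summits. In the 3′ UTR of Ago2 it lay 4 nt before the summit of replicate 1 and 14 nt after that of replicate 2. These 3 sites, with those of Tnrc6a exon 24, Tnrc6b exon 8 and Tnrc6c exon 22, had the GGAC within 20 nt of both summits. At 6 sites the nearest GGAC was over 50 nt from every summit, namely Drosha exon 4 (54 and 101 nt), Ago4 exon 18 (88 and 190 nt), the upstream site of Tnrc6a exon 6 (74 and 76 nt), the stop codon site of Tnrc6b (343 and 344 nt), and in Dicer1 exon 27 the stop codon site (76 and 78 nt) and the 3′ UTR site (117 nt). In Tnrc6c exon 5, whose summits lay far apart, each summit was 3 nt from a different GGAC. Over all machinery summits, 24 of 35 had a GGAC within 50 nt (68.6%, exact 95% interval 50.7 to 83.1), against 56.0% of the 21778 summits of both replicates that could be placed on a transcript of 1 protein-coding gene. DRACH, a looser pattern, was within 50 nt of 94.3% of machinery summits and of 93.2% of all placed summits. The intervals cover counting error only, and summits of the same site in the 2 replicates are not independent.

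**Figure D1:**
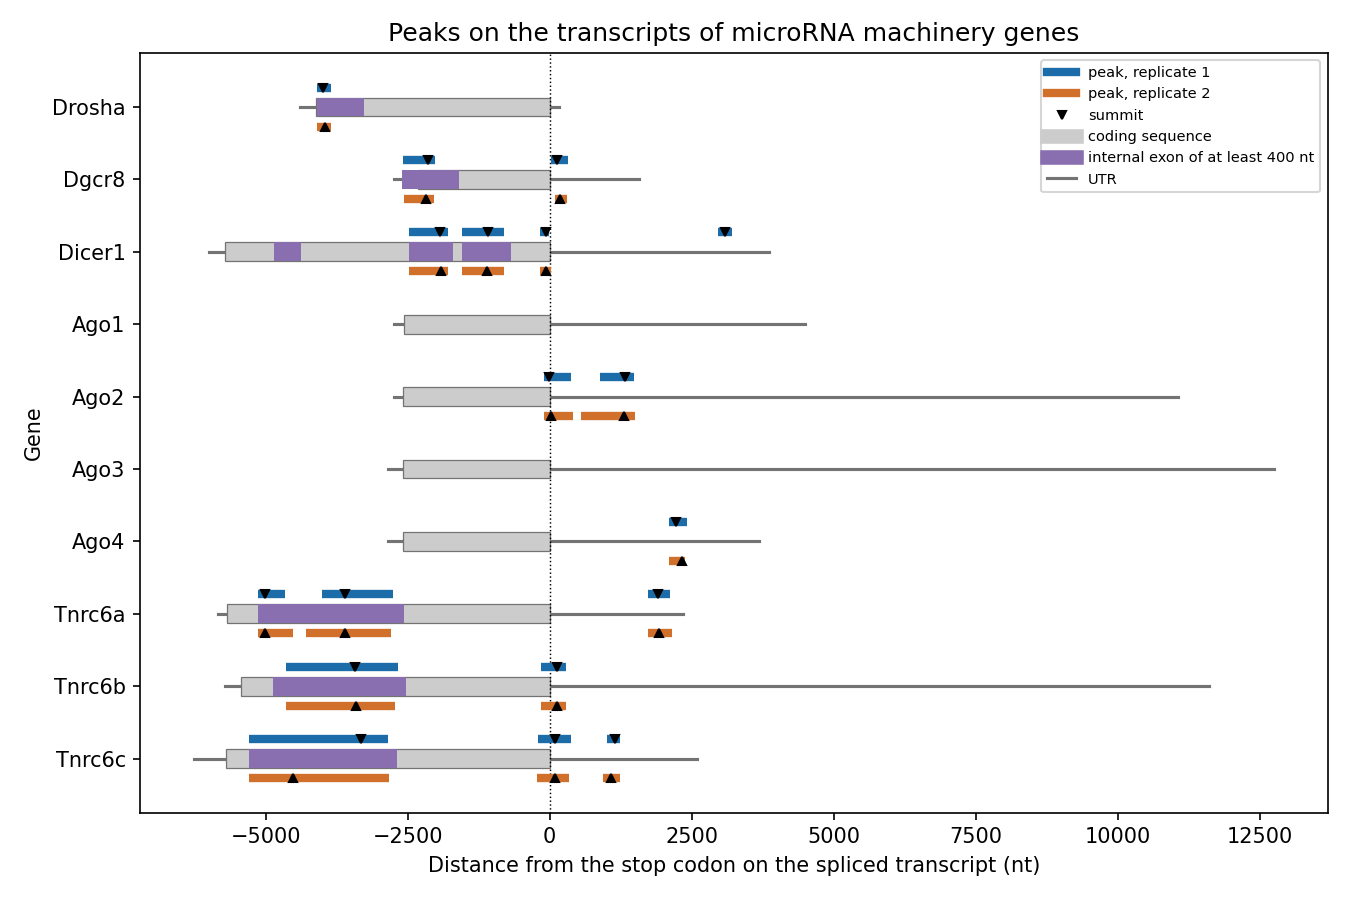
Peaks on the spliced transcripts of the 10 genes, aligned at the stop codon (x axis, distance in nt). Bars above each gene are peaks of IP replicate 1 and bars below are peaks of IP replicate 2, triangles are summits, grey boxes coding sequence, violet boxes internal exons of at least 400 nt and thin lines UTRs. Ago1 and Ago3 have no peak, and 8 of the 18 sites lie in violet boxes.

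The map of peaks on transcripts shows that, among exons, machinery summits fell only into long internal exons and last exons. There were 8 sites in internal exons of at least 400 nt and 10 in last exons. Peaks with a summit outside exons were not counted here. The 6 genes with long internal exons have 8 of them, and 7 held a summit in both replicates. The exception was Dicer1 exon 8, the shortest at 473 nt, which contains 1 GGAC, whereas the other 7 contain 3 to 21. None of the 194 shorter internal exons of the 10 genes held a summit. Among all protein-coding genes with a summit in both replicates the split was similar, since 1700 of 2400 long internal exons (70.8%) and 367 of 58395 shorter ones (0.628%) held a summit in both. Relative to all placed summits, those of the machinery lay in long internal exons more often, at 45.7% (interval 28.8 to 63.4) against 20.4%. This interval pools the replicates, whose summits of the same site are not independent. In replicate 1 alone the share was 44.4% (interval 21.5 to 69.2), and in replicate 2 it was 47.1% (23 to 72.2). Sites of the same gene or of the related Tnrc6 genes are not independent either, so these intervals cover counting error only. The gene sets were not matched for exon structure, and the difference between machinery and all placed summits was not tested.

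At the stop codon and in coding sequence, the shares of machinery summits were close to those of all placed summits, and they differed more at the other landmarks. Within 200 nt of the stop codon lay 28.6% of them (10 of 35, interval 14.6 to 46.3), against 30.0% of all placed summits. The last exon held 54.3% and 61.1%, respectively. Coding sequence away from start and stop codons held 34.3% and 33.7%, and the window of 200 nt around the start codon held 11.4% and 15.3%. The 3′ UTR beyond 200 nt of the stop codon held 25.7% (interval 12.5 to 43.3) and 17.4%. None of 35 machinery summits lay in the 5′ UTR (exact upper limit 10%), against 3.65% of all placed summits. The intervals and the upper limit pool both replicates, whose summits of the same site are not independent, nor are sites of the same gene.

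The fold enrichment of a peak, as the peak caller MACS2 gives it, is the IP pileup over the local background at the summit with 1 added to each. It is a ratio at the summit and does not measure expression. Among the 17 shared sites, the mean over replicates ran from 1.79 ± 0.0503 (SD, n = 2) in Drosha exon 4 to 6.90 ± 1.01 at the stop codon of Tnrc6c, a range of 3.85-fold. The median over machinery peaks was 3.81 in replicate 1 and 4.08 in replicate 2, against 4.18 and 4.39 over all peaks with a summit in an exon. The median −log10 q, the strength of evidence for a peak, was higher in the machinery, at 21 and 20.4 against 16.1 and 15.8. More reads stood behind these peaks too, with a median of 94 and 95 IP reads at the summit against 68 and 66. Machinery peaks were also wider, with a median of 541.5 and 527 bp against 397 and 413.5 bp.

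**Figure D2:**
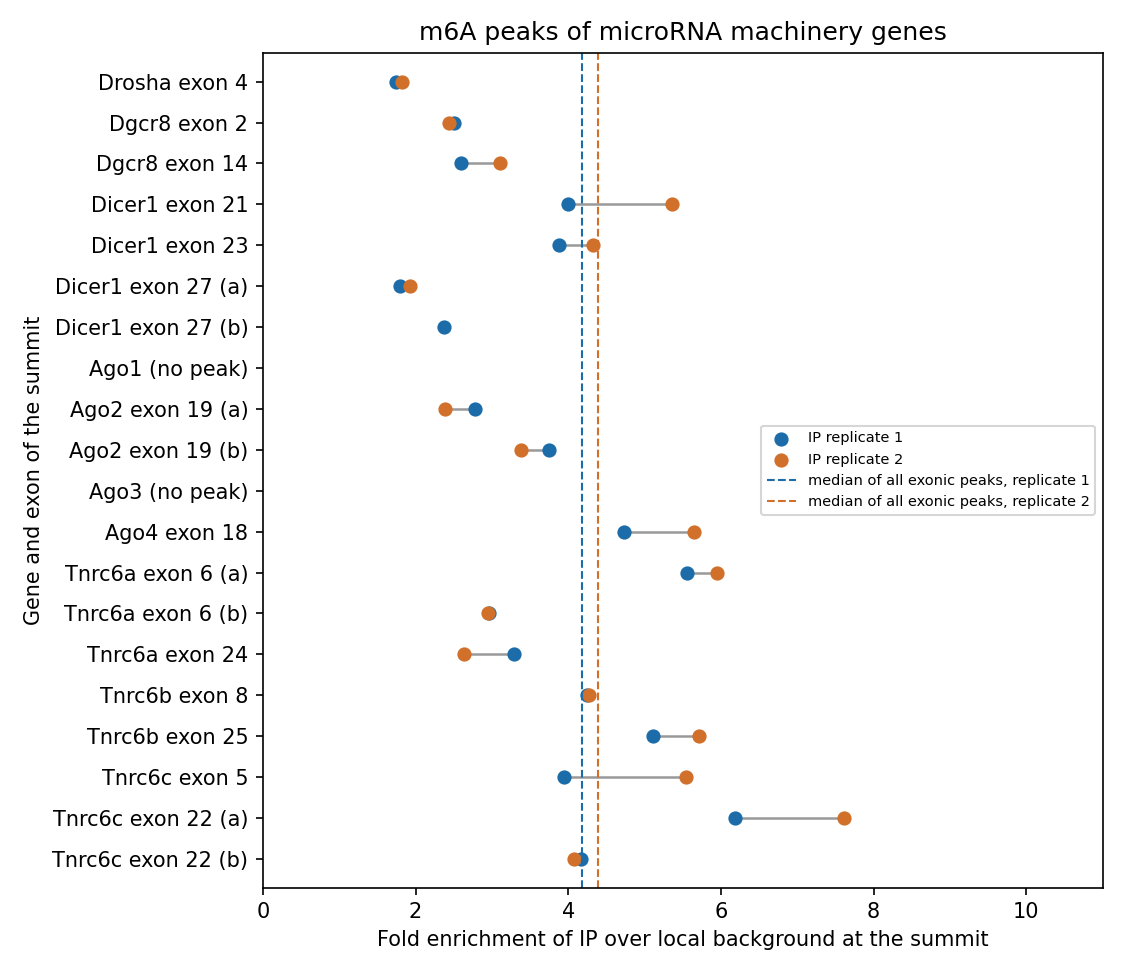
Fold enrichment of IP over local background at the summit (x axis, linear, starting at 0) of each site in IP replicate 1 and IP replicate 2, with a line joining the replicates. Dashed lines are the medians of all exonic peaks, 4.18 and 4.39, and names give the gene and the exon, with (a) and (b) for sites in the same exon. In both replicates, 10 of the 17 shared sites sit left of the median of their replicate, the Microprocessor sites among them, and the Tnrc6c stop codon site is the highest.

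By fold enrichment the 3 sites of the Microprocessor transcripts were among the 5 lowest of the 17 shared sites, with the stop codon sites of Dicer1 and Ago2. Drosha (chr15:12824815-12935291, plus strand) had 1 site, in exon 4, an internal exon of 834 nt, with both summits within 200 nt of the start codon. Its fold enrichment was 1.75 in replicate 1 and 1.82 in replicate 2, with a −log10 q of 5.77 and 5.23. The summits rested on 123 and 108 IP reads over a background pileup of 69.9 and 56, so the low fold came with many reads on both sides. Only 2.53% and 2.94% of exonic peaks had a lower fold enrichment in the respective replicate. Peak coordinates were chr15:12833754-12834087 in replicate 1 and chr15:12833706-12834079 in replicate 2.

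Dgcr8 (chr16:18253948-18289246, minus strand) had 2 sites. In exon 2, an internal exon of 1000 nt that holds the start codon, fold enrichment was 2.50 and 2.44 with 89 and 86 IP reads (chr16:18284108-18284673 and chr16:18284139-18284660). In the last exon, 138 and 176 nt past the stop codon, it was 2.60 and 3.10 with 97 and 87 IP reads (chr16:18255205-18255493 and chr16:18255214-18255437). The last exon was higher than exon 2 in both replicates, by 1.04-fold and 1.27-fold, which is within the difference between replicates described further on. All 3 Microprocessor sites were below the median fold enrichment of exonic peaks in each replicate, as were 10 of the 17 shared machinery sites.

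The exon 2 peak of Dgcr8 covers a microRNA gene. Mir1306 lies in the coding sequence of this exon at chr16:18284239-18284317, minus strand, from 99 to 177 nt after the first coding base, and the RefSeq hairpin is identical to the Dgcr8 transcript over its 79 nt. The summits of both replicates fell inside the hairpin and outside its mature arms. It is printed because the only DRACH in it, in capitals, has its adenosine at hairpin position 72, which is 6 nt before the summit of replicate 1 and 35 nt after that of replicate 2.
Mir1306 hairpin: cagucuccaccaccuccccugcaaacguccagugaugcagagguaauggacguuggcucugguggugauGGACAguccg
The 2 mature RefSeq sequences, with the seed (bases 2 to 8) in capitals, hold no DRACH and do not share a seed.
miR-1306-5p: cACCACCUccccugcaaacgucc
miR-1306-3p: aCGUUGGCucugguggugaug
The reads behind the peak cannot be divided between Dgcr8 mRNA, the primary microRNA and any spliced or cut form, since the peak lists give positions only. The caller's peak is 566 bp wide in replicate 1 and 522 bp in replicate 2, so it extends well beyond the hairpin.

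Dicer1 (chr12:104687742-104751952, minus strand) had 4 sites in replicate 1, the most of any machinery gene, and 3 in replicate 2, as many as Tnrc6a and Tnrc6c. Few genes had as many, as 13.4% of genes with a peak in replicate 1 and 13.1% in replicate 2 had 3 or more. Its long coding exons 21 and 23 carried the stronger peaks. In exon 21 (781 nt) fold enrichment was 3.99 in replicate 1 and 5.37 in replicate 2, from 125 and 123 IP reads over a background of 30.6 and 21 (chr12:104702493-104703248 and chr12:104702484-104703230). In exon 23 (871 nt) it was 3.88 and 4.33, from 135 and 120 IP reads (chr12:104696401-104697245 and chr12:104696401-104697276). Both summits of each exon were within 15 nt of each other, and the IP reads hardly differed between replicates in exon 21 while the background was lower in replicate 2.

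The stop codon of Dicer1 was only weakly marked. Summits 64 and 66 nt before the stop codon had a fold enrichment of 1.79 and 1.93 with a −log10 q of 3.53 and 4.47 (chr12:104691609-104691836 and chr12:104691571-104691837). Exon 21 exceeded this site by 2.22-fold in replicate 1 and 2.78-fold in replicate 2, and exon 23 exceeded it by 2.16-fold and 2.25-fold. Averaged over replicates on the log2 scale, these were the widest contrasts between sites of 1 machinery transcript. The site found once lay 3081 nt past the stop codon (chr12:104688389-104688628), with a fold enrichment of 2.37, a −log10 q of 4.95 and 47 IP reads in replicate 1. No peak of replicate 2 overlapped it.

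The Argonaute proteins bind the microRNA and its target, and AGO2 is the best known among them for cutting its targets. The 4 genes have nearly the same coding length, from 2574 to 2586 nt, and encode proteins that were 78.9% to 86.0% identical when the annotated coding sequences were translated and aligned. Their longest internal exons measured 200 to 316 nt, and all Argonaute summits lay in the last exon.

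Ago2 (chr15:73095844-73184935, minus strand) had a site at the stop codon and another in the 3′ UTR. At the stop codon, with summits 3 nt before it in replicate 1 and 19 nt after it in replicate 2, fold enrichment was 2.78 and 2.38 from 111 and 104 IP reads (chr15:73106534-73107064 and chr15:73106495-73107021). The 3′ UTR site, 1321 and 1303 nt past the stop codon, had 3.74 and 3.38 from 110 and 102 IP reads (chr15:73105421-73106020 and chr15:73105413-73106366). The 3′ UTR site was the higher in both replicates, by 1.35-fold and 1.42-fold. The 3′ UTR of Ago2 is 11064 nt long and holds 41 GGAC, and no other peak had its summit in it.

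Ago4 (chr4:126489541-126533472, minus strand) had a fold enrichment of 4.73 and 5.64 in its 3′ UTR, 2229 and 2331 nt past the stop codon (chr4:126490812-126491118 and chr4:126490833-126491120). This fold was above the median of exonic peaks, but it rested on 12 IP reads in each replicate over a background of 1.75 and 1.2. Its −log10 q of 4.70 and 5.50 was accordingly among the lower ones, with 7.24% and 10.7% of exonic peaks below it. Among machinery peaks these were the fewest reads, so counting error is largest for Ago4, although its replicates differed by less than those of Tnrc6c exon 5 or Dicer1 exon 21.

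Ago1 (chr4:126435012-126468583, minus strand) and Ago3 (chr4:126331704-126429556, minus strand) had no peak in either replicate, also when any overlap of a peak with an exon was counted. By count, their transcripts are not short of the motif. That of Ago1 is 7227 nt long with 25 GGAC, and that of Ago3 is 15595 nt long with 41. Such counts grow with length, and per kb of transcript Ago3 had the fewest GGAC of all machinery genes, at 2.63. Ago1 had 3.46 per kb, more than Ago4 (3.21) and Tnrc6a (2.93), which carried peaks, and less than every other gene with peaks. A link between GGAC density and the missing peaks was not tested. Without read depth at Ago1 and Ago3, a lack of m6A and a lack of reads cannot be told apart. The last 42 coding bases, stop codon included, are shown for all 4 genes because Ago2 alone has a stop codon peak and alone has a GGAC in this stretch (capitals, with the base after it).
Ago1, chr4:126439503-126439544, minus strand: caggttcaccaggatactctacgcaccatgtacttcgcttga
Ago2, chr15:73106908-73106949, minus strand: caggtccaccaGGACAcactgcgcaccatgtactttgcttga
Ago3, chr4:126345474-126345515, minus strand: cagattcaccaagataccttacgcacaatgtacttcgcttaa
Ago4, chr4:126493223-126493264, minus strand: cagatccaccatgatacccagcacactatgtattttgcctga
In the wider window of 200 nt on either side of the stop codon the genes did not differ in this way. Ago1 and Ago3 have 2 GGAC there and Ago2 and Ago4 have 1. DRACH occurs 7 times in that window of Ago1, 9 times in Ago2, 6 times in Ago3 and 3 times in Ago4. At the Ago2 stop codon site the GGAC lay 23 and 45 nt from the summits. A DRACH that begins in the stop codon (TGACC) lay nearer, at 5 and 17 nt. The stretch of 42 bases was picked because it differs between the genes, so it is no test of a link to the peak. A letter match in a window does not say whether a site is used.

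The Tnrc6 genes carried the strongest machinery peaks, and each was marked in both replicates in the long exon that encodes most of the glycine-tryptophan repeats. Tnrc6a exon 6 has 2583 nt, Tnrc6b exon 8 has 2340 nt and Tnrc6c exon 5 has 2601 nt. By translation of the annotated coding sequence, these exons hold 32 of 46, 25 of 38 and 27 of 39 glycine-tryptophan pairs of the respective protein. The 3 proteins were 43.8% to 48.8% identical.

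Tnrc6a (chr7:123123885-123195296, plus strand) had 2 separate sites in exon 6. The upstream site had a fold enrichment of 5.56 and 5.95 from 91 and 94 IP reads (chr7:123169473-123170024 and chr7:123169463-123170158), and its summit also lies in an exon of the predicted gene Gm45846. Since peaks carry no strand, this site cannot be given to either gene alone. The downstream site had 2.96 and 2.95 from 134 and 126 IP reads (chr7:123170677-123171923 and chr7:123170394-123171893). Hence the upstream site was enriched 1.88-fold and 2.02-fold over the downstream one, although fewer IP reads lay on it, because its background was 15.5 and 14.2 against 44.6 and 40. A further site, 1906 and 1924 nt past the stop codon in the 3′ UTR, had a fold enrichment of 3.29 and 2.63 (chr7:123194689-123195072 and chr7:123194686-123195098). Tnrc6a had no peak at its stop codon.

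Tnrc6b (chr15:80711313-80941085, plus strand) had a fold enrichment of 4.25 and 4.27 in exon 8, from 136 and 129 IP reads (chr15:80879093-80881065 and chr15:80879093-80881012). Its −log10 q of 39.1 in replicate 1 was the highest of any machinery peak in that replicate. At the stop codon, with summits 123 and 124 nt past it, fold enrichment was 5.11 and 5.71 from 72 and 65 IP reads (chr15:80929322-80929755 and chr15:80929319-80929754). This strong peak contains no GGAC, the nearest one being 343 and 344 nt before the summits. It holds 14 DRACH, and the one nearest to the summits, 25 and 24 nt after them, is shown with its 5 bases in capitals.
Tnrc6b exon 25, chr15:80929608-80929636, plus strand: aaggtgggtcatTGACAgactgtctgagc
The 3′ UTR of Tnrc6b, which is 11609 nt long with 30 GGAC, carried no peak beyond the stop codon site.

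Tnrc6c (chr11:117654289-117763439, plus strand) has the densest GGAC of the set, with 6.90 per kb of transcript against 2.63 to 4.38 in the other 9 genes. At its stop codon fold enrichment was 6.19 in replicate 1 and 7.62 in replicate 2, from 83 and 95 IP reads (chr11:117760643-117761218 and chr11:117760619-117761182), and both replicates placed the summit on the same base, 89 nt past the stop codon. A further site in the 3′ UTR, 1152 and 1080 nt past the stop codon, had 4.16 and 4.08 (chr11:117761863-117762095 and chr11:117761781-117762087). The stop codon site exceeded it by 1.49-fold and 1.87-fold. In exon 5, fold enrichment was 3.95 and 5.54 from 123 and 127 IP reads (chr11:117720846-117723398 and chr11:117720853-117723405). That peak is 2553 bp wide in each replicate, holds 20 GGAC, and had its summits 1206 nt apart, so a single position stands poorly for it.

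**Figure D3:**
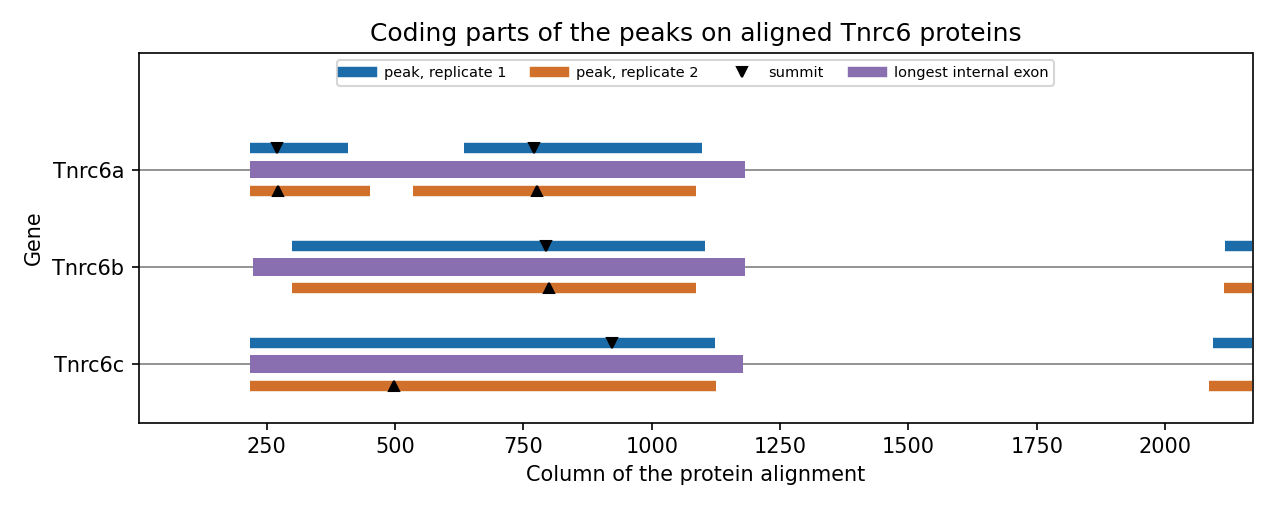
Coding parts of the Tnrc6 peaks placed on the alignment of the 3 translated proteins (x axis, alignment column, 2170 in all). Violet bars are the longest internal exons, blue and orange bars peaks of IP replicates 1 and 2, and triangles summits. The violet bars begin at columns 218 to 224 and end at columns 1177 to 1180, and peaks of the 3 genes overlap within them.

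On the alignment of the translated proteins the long exons of the 3 genes covered almost the same stretch, from column 218 to 1180 in Tnrc6a, 224 to 1180 in Tnrc6b and 218 to 1177 in Tnrc6c. The downstream peak of Tnrc6a (summits at columns 770 and 777) and the peak of Tnrc6b (794 and 800) had their summits at nearby columns. Those of Tnrc6c exon 5 lay elsewhere, at column 923 in replicate 1 and column 498 in replicate 2. The upstream site of Tnrc6a had its summits at columns 271 and 272. Tnrc6b had no peak there, as its exon 8 peak began at column 299 in both replicates, whereas the Tnrc6c peak covered columns 218 to 1124 and 218 to 1126. At the end of the protein, peaks of Tnrc6b and Tnrc6c ran across the stop codon and began at columns 2116 and 2094 in replicate 1. The genes are related in sequence, and their sites are not independent of each other.

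Against the spread of all peak pairs, the order of sites could be read only over wide steps. For all 11524 one-to-one peak pairs of the 2 replicates, in or outside exons, the log2 ratio of fold enrichment had an SD of 0.47. For the 17 machinery pairs the SD was 0.22 and the mean 0.09, with 11 of 17 higher in replicate 2. Of these pairs, 16 differed by less than the SD over all pairs, and the exception was Tnrc6c exon 5 with a log2 difference of 0.49. Spearman's rho between replicates was 0.939 over the 17 sites and 0.802 over all pairs, given as a description, because sites of 1 gene share its transcript.

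**Figure D4:**
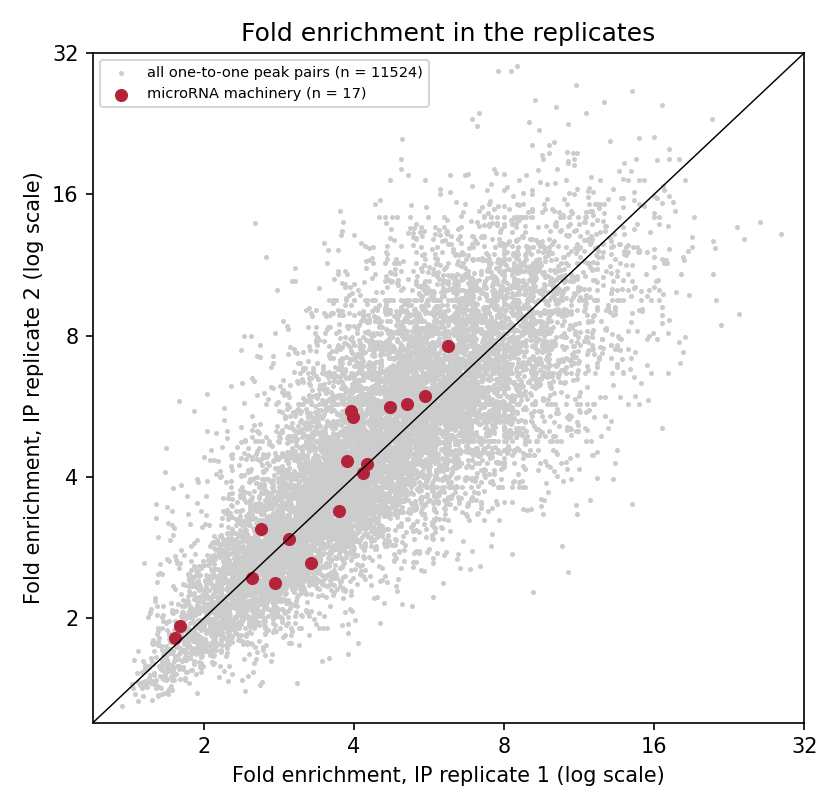
Fold enrichment in IP replicate 1 (x axis) and IP replicate 2 (y axis), both on log scales, with the line of equal values. Grey marks all 11524 one-to-one peak pairs, in or outside exons, and red the 17 paired machinery sites. All 17 machinery sites lie within 2-fold of the line, as do 95.2% of all pairs.

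When the 17 sites were ordered by their mean, a single gap between neighbours, 0.41 on the log2 scale between Dgcr8 exon 2 and the Dicer1 stop codon site, exceeded 0.33, the SD expected for a difference of such means. The other 15 neighbouring pairs did not differ beyond that spread. The 0.33 was taken from the SD over all peak pairs (0.47), and the SD of the machinery pairs was smaller (0.22). A smaller spread would let more gaps stand out, and this was not computed. Within genes, 10 of 12 pairs of sites kept their order in both replicates, and 5 of these differed by more than 2 times the SD of 0.33. Those 5 were the contrasts of Dicer1 exons 21 and 23 with its stop codon, of the upstream Tnrc6a site with the other two, and of the Tnrc6c stop codon with its 3′ UTR site. The pairs that changed order were Tnrc6a exon 24 with the downstream site of exon 6, and Tnrc6c exon 5 with the 3′ UTR site.

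Positions were closely shared between replicates. Of machinery peaks, 97.1% shared 1 bp or more with a peak in the other replicate, against 85.5% of all peaks with an exonic summit. The median distance between summits of a site was 18 nt, and 14 of 17 sites had summits within 50 nt of each other. The others were Ago4 exon 18 at 102 nt, the 3′ UTR site of Tnrc6c at 72 nt, and Tnrc6c exon 5.

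Beyond the core machinery, 32 other genes of the pathway were listed, also with earlier results of these data known. Of them, 14 carried a summit in both replicates, where 30.9% of protein-coding genes did. By role these were 6 of 12 genes that assist nuclear processing or export, neither of the 2 Dicer partners, 3 of 7 genes that control precursors, and 5 of 11 on the effector side. The strongest by mean −log10 q was Adar, an adenosine deaminase that edits double-stranded RNA, with a fold enrichment of 4.55 and 5.47 in an internal exon of 1432 nt. Next came Zcchc11 (Tut4) with 5.84 and 5.61 in an internal exon of 695 nt. Limd1, an Argonaute- and TNRC6-binding scaffold, had 4.31 and 4.72 in exon 1. Zcchc6 (Tut7) had 4.02 and 3.4 in an internal exon of 551 nt, and like Tut4 it encodes a terminal uridylyltransferase that tails precursors of let-7. The helicase Ddx17, a Microprocessor cofactor, had 6.47 and 5.93 in the 5′ UTR of exon 1. Of these 5 genes, 3 had their strongest peak in a long internal exon, where 20.4% of all placed summits lay. The 5 were picked by −log10 q, and the share over all 14 genes was not computed.

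A summit in a single replicate was found for 3 of the other genes. Erh, a Microprocessor cofactor, had a fold enrichment of 5.90 and 75 IP reads in replicate 1, and in replicate 2 a peak of 3.96-fold overlapped an exon of it without a summit there. The summit of the peak in replicate 1 also lies in an exon of the neighbouring gene Slc39a9, and since peaks carry no strand it cannot be given to either gene. Prkra, which encodes the Dicer partner PACT, had 15.7-fold from 22 IP reads in replicate 2, and Ajuba, a relative of Limd1, had 9.61-fold from 13. The latter were high folds on few reads. No exonic summit was found in either replicate for 15 genes, namely Ran, Srrt, Ddx5, Hnrnpa1, Srsf3, Tarbp2, Lin28a, Lin28b, Dis3l2, Adarb1, Wtip, Ipo8, Trim71, Tsn and Tsnax. For Ran, the GTPase that drives precursor export, peaks of 1.53-fold and 1.44-fold touched an exon without having their summit in it.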

How the data were processed

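meRIP-seq reads of 2 biological replicates were aligned by the authors to GRCm38 (mm10) with HISAT2, and peaks were called in each replicate with MACS2 2.1.1 (nomodel). The calling threshold and the control library are not given in the sources used here. The deposited lists give a fold enrichment ratio, a −log10 p-value and a −log10 q-value at the summit, and a score that is the whole-number part of 10 times −log10 q. Summits were placed on exons of the GENCODE M21 basic set and on the transcript with the longest coding sequence. IP reads and background pileup at each summit were computed from the deposited fold enrichment and −log10 p-value under the formulas of MACS2. Whole numbers of IP reads matched 100% of peaks, to within 0.000422 in −log10 p, and the computation was tested on simulated data. The background pileup is in the units of MACS2 after scaling, in which 1 IP read counts 1 in replicate 1 and 0.952 in replicate 2. Library totals are not known from peak lists, so a missing peak has no stated detection limit. No annotated overlap was resolved by strand, since peaks carry none.

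Proteins were translated from the annotated coding sequences and aligned with MAFFT 7.526. Shares have exact Clopper-Pearson 95% intervals. Groups came from the sample labels, and the only group with values had 2 samples, so no p-value is given. Named genes are all 10 members and, of the 32 other pathway genes, the 5 with the highest mean −log10 q, every gene with a summit in 1 replicate and every gene with none. The members and lists were chosen with earlier results of these data known. Alternatives were the annotation, the assignment rule, minimum fold enrichment of 4, minimum −log10 q of 3 or 5, window sizes, the transcript model, and each replicate left out. Computations used Python with pandas 2.3.3, numpy 2.4.6, scipy 1.17.1 and Biopython 1.88.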

Additional observations from a re-analysis of the deposited data

Results flagged for a closer look

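Peaks whose summit lay near or within machinery genes but in no annotated exon were outside the measurement reported, and no control sample was analysed here to set them against. Upstream of Dicer1, a peak stood in both replicates, with a fold enrichment of 11 from 39 IP reads in replicate 1 (chr12:104752241-104752690) and 7.62 from 39 IP reads in replicate 2 (chr12:104752269-104752737). Its summits lay 586 and 593 nt before the annotated start of the gene, and in no exon of the full annotation. An intron of Dicer1 held a peak in replicate 1 only, with a fold enrichment of 3.92 from 68 IP reads (chr12:104694673-104694891). An intron of Tnrc6b held a peak in replicate 1 only, with a fold enrichment of 9.93 from 28 IP reads over a background of 1.92 (chr15:80798522-80798726).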

How the results depend on the processing

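The count of 8 machinery genes was 8 with all annotated transcripts, with any overlap, with a minimum −log10 q of 3 and with summits in exons of 1 gene, and 7 with a minimum −log10 q of 5, which removed Ago4. A minimum fold enrichment of 4 moved most values: 4 machinery genes (Ago4, Tnrc6a, Tnrc6b and Tnrc6c), 3702 protein-coding genes (16.9%) and 6 of the other pathway genes remained, 26.7% of machinery summits lay at the stop codon, 60.0% had a GGAC within 50 nt, 80.0% of peaks were shared, and the median fold enrichment was 5.37. Under a minimum −log10 q of 5, 25.8% of summits lay at the stop codon, 51.6% in long internal exons and 77.4% near a GGAC. With motif windows of 25 and 100 nt, the share near a GGAC was 57.1% and 85.7%. Summits within 100 bp in the other replicate were found for 85.7% of machinery peaks, and the geometric mean of fold enrichment was 3.58, where the median over both replicates was 3.88. Leaving out each replicate in turn gave 8 to 8 machinery genes, 7358 to 7560 protein-coding genes, 15 to 16 other pathway genes, 27.8% to 29.4% of summits at the stop codon, 66.7% to 70.6% near a GGAC, 44.4% to 47.1% in long internal exons, and a median fold enrichment of 3.81 to 4.08. In all, 43 values under alternatives moved by less than the spread between replicates or, for counts of genes, by less than 1.5 times. Some of these could hardly move. The spread was that of the 2 single-replicate values, which also gave the shares with a replicate left out. A minimum −log10 q of 3 removed no machinery peak, as the lowest values were 3.53 in replicate 1 and 4.47 in replicate 2. No paired analysis was possible because the input samples that share replicate numbers with the IP samples have no values here. The cause of these shifts was not tested. Read depth limits the Ago4 site, which rests on 12 IP reads in each replicate, and leaves genes without a peak undecided.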
